A study of Mus musculus with 8 samples.

Results

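Mir132 and Mir212 are neighbouring miRNA genes on mouse chromosome 11. They were taken from the count tables by matching the RefSeq symbols to features of identical mm10 coordinates, which gave 2 of the 2202 features counted in all 8 libraries. Mir212 (ENSMUSG00000065590.1, chromosome 11, 75173388 to 75173478, plus strand, 91 nt) lies upstream of Mir132 (ENSMUSG00000065537.2, 75173682 to 75173747, plus strand, 66 nt), with 203 nt between the hairpins. No other counted feature and no other RefSeq gene overlaps either of them. The nearest RefSeq genes are Ovca2, 2.20 kb away, and Hic1, 3.13 kb away.

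The samples are spleen B cells of Ago2HA/HA mice, in which both copies of the Ago2 gene carry an HA tag. Resting cells were obtained by removing CD43-bearing cells, and proliferating cells were the same kind of cells after activation in culture with an agent that the labels do not name. Small RNA was sequenced from total (input) RNA and from the RNA precipitated by an anti-HA antibody (IP), which gave 4 groups of 2 libraries: resting input, resting IP, proliferating input and proliferating IP. All groups carry the tag. Per the labels, nothing was recovered with the antibody from animals without the tag and these have no library, so each IP is read against its input. The strain, age and number of animals are not given in the labels, and they do not say that replicate libraries are separate animals, so the p-values here measure a spread that may be technical.

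miR-132 and miR-212 are known to be cut from one primary transcript whose promoter is bound by CREB, a transcription factor phosphorylated after calcium and MAP kinase signals, and they are best studied as activity-induced miRNAs of neurons. In the blood lineages miR-132 is known to hold back early B cell development through the transcription factor Sox4, and the pair acts on Foxo3 in stem cells. An Argonaute protein such as AGO2 holds 1 strand of the processed duplex and pairs it with target transcripts, mainly through the seed, bases 2 to 8 from the 5′ end.

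The mature sequences below are RefSeq's (GRCm38.p6, the assembly also called mm10), and they are shown because the 3p arms of both genes carry the same seed, marked by capitals.
miR-132-3p: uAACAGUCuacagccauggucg
miR-212-3p: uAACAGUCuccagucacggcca
miR-132-5p: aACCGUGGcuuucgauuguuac
miR-212-5p: aCCUUGGCucuagacugcuuacu
Both 3p arms have 22 nt and agree at 17 of them, without a break over the first 9 bases. Counted from 1 at the 5′ end, with the base of miR-132-3p first, they differ by A10C, C14U, U17C, U20C and G22A. No other mature miRNA among the mouse sequences available here has the seed AACAGUC. The seeds of the 5p arms differ from each other and from those of the 3p arms.

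The deposited counts belong to the whole hairpin, so both arms of a gene are counted together. The hairpins are shown with the mature arms in capitals, because these are the intervals that were counted.
Mir132: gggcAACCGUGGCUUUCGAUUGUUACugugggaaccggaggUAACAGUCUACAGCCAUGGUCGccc
Mir212: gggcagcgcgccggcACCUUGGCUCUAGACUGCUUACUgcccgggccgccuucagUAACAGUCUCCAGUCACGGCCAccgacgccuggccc
Each of the 4 mature sequences occurs in 1 hairpin only of this set, so that full-length reads of Mir132 and Mir212 can be told apart.

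Library totals ran from 213418 to 1681148 counts, and a floor of 3 counts lies between 2.24 and 10.5 CPM (depth-scaled counts, here with edgeR's TMM factors). The B cell and lymphocyte markers Mir150, Mir155 and Mir342 together were at 180022 to 383981 CPM in every library. Mir223, the myeloid marker, was at 11582 to 27113 CPM in the resting inputs and 18222 to 31035 CPM in the resting IPs, against 1724 to 2536 CPM and 811 to 1237 CPM in the proliferating inputs and IPs. The erythroid Mir144 also fell with proliferation, from 115 to 223 CPM in the resting inputs to 14.1 to 17.5 CPM in the proliferating inputs. The 5 epithelial markers summed to 1034 to 1293 CPM in the resting and 457 to 568 CPM in the proliferating inputs. Mir223, Mir144 and the epithelial sum moved with cell state in the opposite direction to Mir132 and Mir212. Of the epithelial markers, Mir200a and Mir141 were called lower in proliferating input (log2 fold changes -2.89 and -1.54). Mir429, Mir200b and Mir200c did not pass there (-1.52, -0.78 and -0.0002). Of the lymphocyte markers, Mir155 rose in the input (3.37), like the pair, and Mir150 fell (-3.54). The endothelial Mir126a, whose reads are uncertain because Mir126b lies over it on the other strand, moved in the same direction as the pair. It rose from 174 to 241 CPM to 488 to 614 CPM in the inputs (log2 fold change 1.41, edgeR adjusted p = 0.0024) and from 76.9 to 155 CPM to 1037 to 2046 CPM in the IPs (3.74, edgeR adjusted p = 2.8e-10). The hepatocyte Mir122 rose in the input (2.54, edgeR adjusted p = 0.027), where it had 3 and 4 counts in resting and 22 and 13 in proliferating cells, and not in the IP (-1.86, adjusted p = 0.064). With upper-quartile factors in place of TMM the input calls of Mir126a (1.03) and Mir122 (2.17) were lost. In the IP Mir122 was called lower in proliferating cells with RLE (-1.99) and upper-quartile factors (-2.48). The part of these markers in the results was not tested. In bulk RNA, fewer cells of a type and less RNA per cell cannot be told apart.

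Mir132 stood in the upper part of the features with a count in proliferating cells, and near the middle or lower in resting cells. It had 12 and 10 counts in the resting inputs (33.6 and 24.6 CPM, replicates 1 and 2), 2 and 11 counts in the resting IPs (1.49 and 14.7 CPM), 66 and 42 counts in the proliferating inputs (186 and 147 CPM), and 183 and 339 counts in the proliferating IPs (268 and 287 CPM). All 4 libraries of proliferating cells were above all 4 libraries of resting cells, and the proliferating IPs were the highest. Both proliferating inputs lay above both resting inputs for 43.4% of the 219 tested features. In the IPs this held for 42%. The share for all 8 libraries together was not counted. Among the features with a count Mir132 ranked by count 155 of 303 and 164 of 295 in the resting inputs. In the resting IPs it ranked 299 of 381 and 179 of 320. In proliferating cells it ranked 101 of 296 and 103 of 273 in the inputs and 85 of 326 and 84 of 399 in the IPs. Resting IP replicate 1, at 2 counts, lay below the floor of 3 counts. The resting IPs stood apart from each other by 9.86 times, and their exact Poisson 95% intervals, 0.181 to 5.39 and 7.35 to 26.3 CPM, did not overlap. These intervals cover counting error only.

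Mir212 was the rarer member. It had 1 and 6 counts in the resting inputs (2.80 and 14.7 CPM), 1 count in each resting IP (0.746 and 1.34 CPM), 14 and 28 counts in the proliferating inputs (39.5 and 98.2 CPM), and 21 and 50 counts in the proliferating IPs (30.7 and 42.4 CPM). Again every library of proliferating cells was above every library of resting cells, but here 1 proliferating input, not the IPs, was the highest. In 1 resting input and both resting IPs the count lay below the floor of 3, so at this depth Mir212 was barely detectable there.

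**Figure D1:**
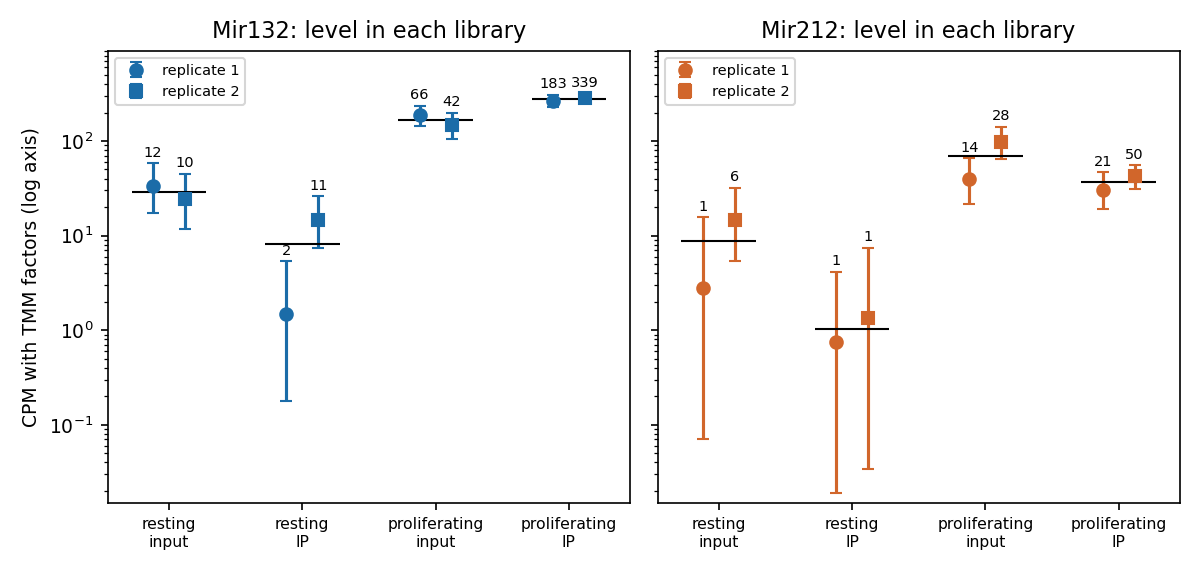
Level of Mir132 (left) and Mir212 (right) in each of the 8 libraries, in CPM with TMM factors on a log axis; points are libraries, bars are exact Poisson 95% intervals, the black lines are group means and the small numbers are counts. Proliferating libraries lie above resting libraries for both genes, and the resting IPs of Mir132 differ from each other by 9.86 times.

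Since both genes give the same 3p seed and no other gene listed here does, their sum is the level of the hairpins that carry AACAGUC. It was 36.4 and 39.3 CPM in the resting inputs, 2.24 and 16.1 CPM in the resting IPs, 226 and 246 CPM in the proliferating inputs, and 298 and 330 CPM in the proliferating IPs. The inputs of a state thus lay within 1.09 times of each other in the sum, closer than either gene alone.

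The first comparison asks how the pair differs between cell states in total small RNA. Both genes rose with proliferation in the input. Mir132 was 5.74 times as high, at 166.8 ± 27.5 CPM against 29.1 ± 6.39 CPM (mean ± SD, n = 2), with a log2 fold change of 2.52 (SE 0.60, edgeR quasi-likelihood test, adjusted p = 6.8e-04). For Mir212 the means were 68.9 ± 41.5 and 8.77 ± 8.44 CPM (SD, n = 2), and the log2 fold change was 2.90 (SE 0.98, edgeR adjusted p = 0.015). Both are among the 26% of the 219 tested features that were called higher in proliferating input, and 23.3% were called lower. The call for Mir132 was kept in all 17 alternative analyses, with log2 fold changes from 2.17 to 2.88. The call for Mir212 was lost without resting input replicate 1 (2.21, edgeR adjusted p = 0.17), without proliferating input replicate 2 (2.25, adjusted p = 0.15), and without either proliferating IP library (2.72 and 2.91, adjusted p = 0.054 and 0.051), and the value was 4.46 without resting input replicate 2. Over its 16 alternatives the adjusted p ran from 0.011 to 0.17.

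The same comparison within the IP asks how the pair differs among AGO2-bound miRNAs. Here the fitted log2 fold changes of both genes were larger than in the input. That difference, tested further below, passed for Mir132 in the reported fit and in 5 of 16 alternatives, and did not pass for Mir212. Mir132 went from 8.11 ± 9.36 to 277.5 ± 14.0 CPM (SD, n = 2), a log2 fold change of 5.26 (SE 0.66, edgeR adjusted p = 8.2e-09), and the lowest proliferating IP was 18.2 times the highest resting IP. In this fit it was the largest rise among the 219 features tested. The size rests on the resting IPs: the log2 fold change was 4.12 without resting IP replicate 1, which had 2 counts, and 7.45 without replicate 2, and it passed in all 17 alternatives. Mir212 had 71 counts in the proliferating IPs and 2 in the resting IPs, a ratio of 39.8 with an exact 95% counting interval of 10.6 to 335, at 36.6 ± 8.26 against 1.04 ± 0.419 CPM (SD, n = 2). Its edgeR adjusted p was 2.5e-04 and ran from 1.6e-04 to 0.020 over 16 alternatives. The fitted log2 value, 4.99, depends on the prior count and was 3.32 with a prior count of 2. The background in this comparison was 28.3% of features called higher in proliferating IP and 23.7% called lower. The libraries did not overlap for 43.4% of features higher in proliferating input and 42% higher in proliferating IP, so that the lack of overlap alone does not set the pair apart.

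Scaling moved the balance of calls between cell states. In the input 57 features were called higher and 51 lower with TMM factors, 75 and 37 with library totals, and 39 and 59 with upper-quartile factors. In the IP the split was 62 and 52 with TMM factors and 38 and 75 with upper-quartile factors. The median log2 fold change of all features, 0.04 in the input and 0.21 in the IP, became -0.31 and -0.45 with upper-quartile factors and 0.40 and 0.22 with library totals. Both members stayed higher in proliferating cells under each of these scalings.

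Setting the resting IP against the resting input asks whether the pair was over- or under-represented with AGO2. Mir132 was 4.02 times lower in the resting IP, with both IP libraries below both inputs and a log2 fold change of -2.01 (SE 0.70, edgeR adjusted p = 0.026). In this comparison 15.5% of the features were called lower in the IP and 13.2% higher, and for 34.7% both IP libraries lay below both inputs. The call for Mir132 passed in 6 of 17 alternatives, with adjusted p from 3.1e-05 to 0.33. It did not pass with RLE or upper-quartile factors, with a minimum count of 50, with DESeq2 or when fitted on the resting libraries alone. It was also lost without resting input replicate 1 (-1.53), either proliferating input (-1.75 and -1.74), resting IP replicate 1 (-1.03) or either proliferating IP (-2.12 and -1.85). Without resting IP replicate 2 the value was -4.35. Mir212, with 2 counts in the resting IPs and 7 in the resting inputs, had an IP over input ratio of 0.105 (95% exact counting interval 0.0106 to 0.550) and did not pass (edgeR adjusted p = 0.082). Its fitted log2 value of -2.98 depends on the prior count and was -1.58 with a prior count of 2, and it was -1.27 without resting input replicate 2, which holds 6 of the 7 input counts. Calls in this comparison were 29 higher and 34 lower with TMM factors, 25 and 41 with library totals, and 33 and 23 with upper-quartile factors.

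In proliferating cells the IP held the members at levels nearer to those of the input. Mir132 was 1.66 times as high in the IP, and both IP libraries were above both inputs, but it did not pass (log2 fold change 0.73, SE 0.52, edgeR adjusted p = 0.32). Both IP libraries lay above both inputs for 30.6% of the features. Mir212 had a log2 fold change of -0.89 (SE 0.82, edgeR adjusted p = 0.48), and its libraries overlapped: replicate 1 of the input, at 39.5 CPM, lay between the IPs. The share of features called was 13.2% higher and 13.7% lower in the IP. With TMM factors 29 features were called higher and 30 lower, with library totals 16 and 60, and with upper-quartile factors 23 and 31.

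The difference between the 2 comparisons of IP with input was tested directly. For Mir132 the IP over input log2 fold change was 2.74 higher in proliferating than in resting cells (SE 0.87, edgeR adjusted p = 0.023), where 9.59% of features were called in this direction and 7.76% in the other. It passed in 5 of 16 alternatives (adjusted p from 1.9e-05 to 0.30). It was lost without resting input replicate 1 (1.98), proliferating input replicate 1 (2.57) or 2 (1.97), resting IP replicate 1 (1.82), proliferating IP replicate 1 (2.96) or 2 (2.50), and it was 5.13 without resting IP replicate 2. For Mir212 the difference was 2.09 (SE 1.497, edgeR adjusted p = 0.36), and it was 0.30 without resting input replicate 2 and 0.74 with a prior count of 2. Calls split into 21 higher and 17 lower with TMM factors, 7 and 15 with upper-quartile factors and 7 and 20 with library totals.

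**Figure D2:**
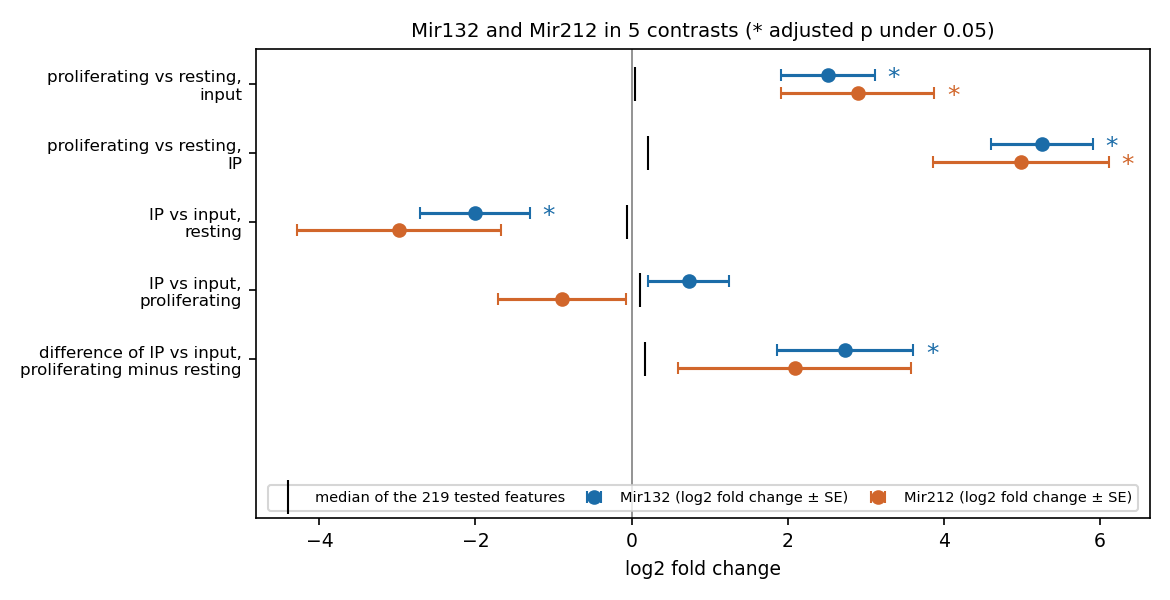
Log2 fold change (horizontal axis) of Mir132 (blue) and Mir212 (orange) in the 5 contrasts, with bars for the SE, an asterisk for an edgeR adjusted p under 0.05 and a black tick for the median of the 219 tested features. The contrasts between cell states are positive and called for both genes, at 2.52 and 2.90 in the input and 5.26 and 4.99 in the IP, while the contrasts of IP with input lie between -2.98 and 0.73.

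**Figure D3:**
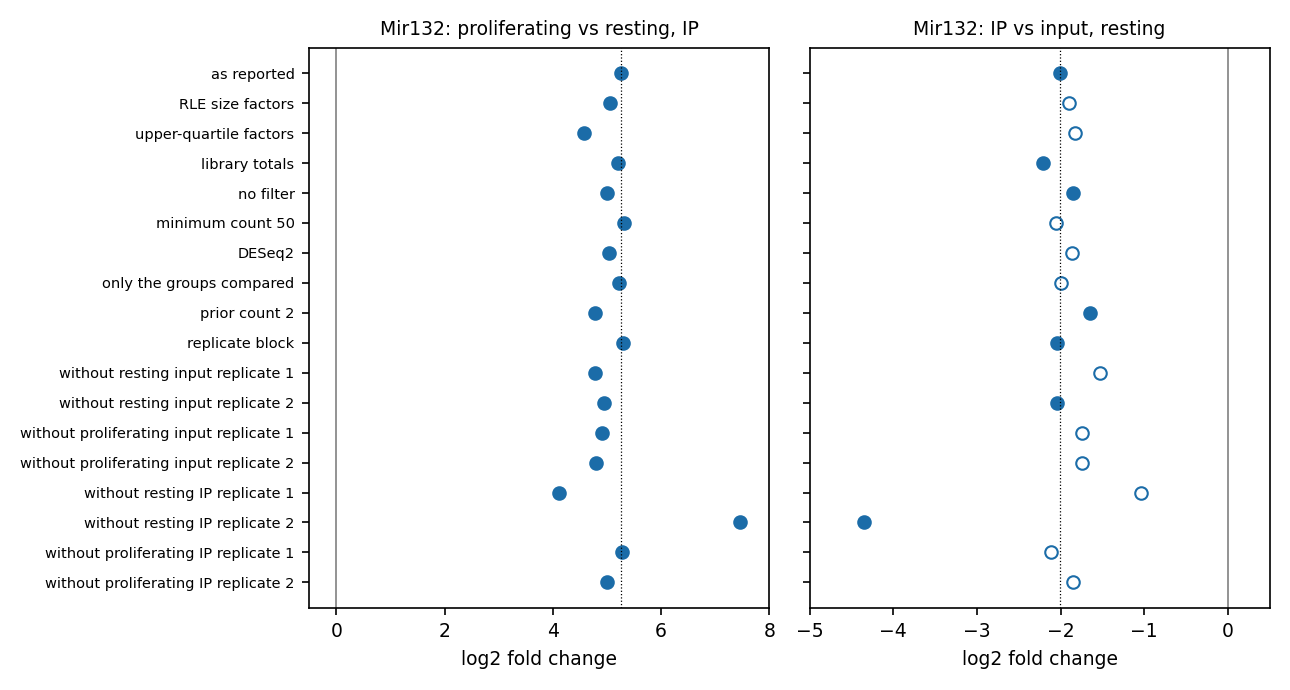
Log2 fold change of Mir132 between proliferating and resting IP (left) and between IP and input of resting cells (right) as reported and in 17 alternative analyses; filled points have an adjusted p under 0.05, and the dotted line is the reported value. All points on the left are filled and span 4.12 to 7.45, while on the right 6 alternatives are filled and the values span -4.35 to -1.03.

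The proportion of the pair within a library does not depend on its scaling. Mir212 made up 122 of 787 counts of the pair over all libraries, or 15.5%. Per nucleotide of hairpin, Mir132 was higher than Mir212 in all 8 libraries, by 2.07 to 16.5 times. In the proliferating inputs Mir212 gave 17.5% (14 of 80 counts, exact Clopper-Pearson 95% interval 9.91 to 27.6) and 40.0% (28 of 70, interval 28.5 to 52.4) of the pair. In the proliferating IPs it gave 10.3% (21 of 204, interval 6.49 to 15.3) and 12.9% (50 of 389, interval 9.69 to 16.6). Both IPs were thus below both inputs, while the inputs differed from each other beyond counting error. The interval of input replicate 1 held both IP values, and only that of input replicate 2 lay apart from the IP intervals. The difference between IP and input was not tested. The resting libraries held 3 to 16 counts of the pair each, with shares from 7.69% to 37.5% and intervals that all overlapped, so no difference in the proportion was detectable there at this depth.

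**Figure D4:**
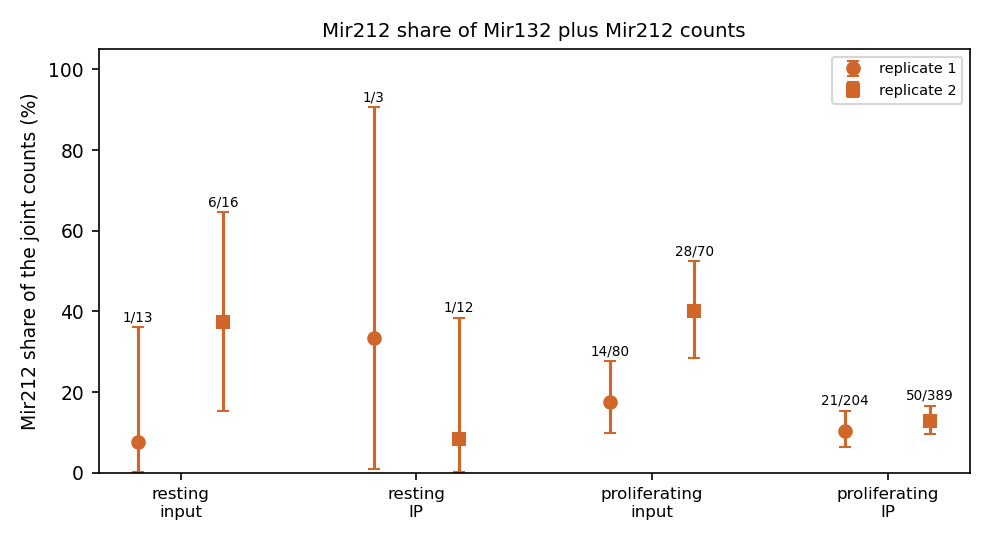
Share of Mir212 in the joint counts of Mir132 and Mir212 (percent) in each library, with exact 95% intervals and the counts above them. The proliferating IPs sit at 10.3% and 12.9% with narrow intervals, below the proliferating inputs at 17.5% and 40.0%. The interval of the input at 17.5% holds both IP values. The resting libraries have intervals too wide to order.

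A list of 14 miRNA genes linked to lymphocyte activation gives the setting of the pair. The list was chosen with earlier results of these data known, so its counts are a description only. All 14 were tested. Of the 12 others 8 rose with proliferation in the input, none fell and 4 did not pass. Over all 219 tested features 26% were called higher there and 23.3% lower. The median log2 fold change was 2.42 for the 12 against 0.04 for all features. Mir155, the product of the activation-induced Mir155hg transcript, rose by 3.37, Mir34a, a p53 target, by 3.17, and Mir183, Mir96 and Mir182, which share 1 cluster, by 3.59, 3.54 and 3.11. Mir222 rose by 1.73, Mir21a by 0.58 and Mir146b, a paralogue of the NF-kappaB-induced Mir146 with 64 counts in all libraries together, by 3.26. The log2 values of Mir146 (0.44), Mir221 (0.66), Mir210 (0.68) and Mir22 (-0.67) did not pass. In the IP again 8 of the 12 rose and none fell, while 28.3% of all features were called higher and 23.7% lower. The median was 2.25 for the 12 against 0.21. Those that rose were Mir155 (3.65), Mir34a (3.20), Mir183 (3.92), Mir182 (3.90), Mir96 (2.91), Mir222 (2.02), Mir221 (1.41) and Mir210 (1.43). In the IP the log2 fold change of Mir132, at 5.26, was above each of these, a difference that was not tested. With upper-quartile factors 6 of the 12 rose in the input, and in the IP 7 rose and 2, Mir146 and Mir22, fell. Under that scaling the calls of Mir21a and Mir146b in the input and of Mir210 in the IP were lost, those of Mir21a and Mir146b also with RLE factors. With library totals 10 of the 12 rose in the input and 8 in the IP.

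Set against the input, members of the list were called in both directions in the IP, as were features in general. Over all 219 tested features 13.2% were called higher and 15.5% lower in resting cells, and 13.2% and 13.7% in proliferating cells. Calls in both directions thus do not set the list apart. In resting cells 2 of the 12 others were higher in the IP, Mir21a (1.30) and Mir146 (0.95), and 1 was lower, Mir210 (-2.45), with a median of -0.24 against -0.05 for all features. In proliferating cells Mir221 (1.41) and Mir21a (1.18) were higher and Mir146b (-3.35) and Mir210 (-1.70) lower. With library totals 2 were higher and 5 lower there. None of the 12 passed the test of the difference between states, at medians of 0.26 for the 12 and 0.17 for all features, except that Mir146 passed with library totals (-1.03, edgeR adjusted p = 0.013).

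Apart from Mir128-1, the neuronal partners of the pair had no counts or few. Among all 2202 features 560 had a count, so a count of 0 does not set these genes apart. Of a list of 19 activity-dependent neuronal miRNA genes, which includes the pair, 10 had a count in any library and 3 were tested: Mir132, Mir212 and Mir128-1. Mir128-1, which is also expressed outside the nervous system, did not pass between cell states in the input (-0.62, edgeR adjusted p = 0.11) or the IP (-0.45, edgeR adjusted p = 0.23), while with upper-quartile factors it was called lower in proliferating cells in both (-0.98 and -1.09). Of the 9 genes at 0 in every library, 5 (Mir134, Mir329, Mir381, Mir485 and Mir34c) have mature sequences held by no other gene. Mir9-1 shares its mature sequence with other genes, so that its reads may not have been assigned. Mir124a-1, Mir124a-2 and Mir124a-3 were also at 0. No mature sequence was matched to them here, so sharing could not be checked for them. Mir379 had 7 counts, Mir34b 8, Mir138-1 11 and Mir138-2 36 in all libraries together. Mir138-1, Mir138-2, Mir128-1 and Mir128-2 each have a mature sequence held by 2 genes, and Mir9-2 and Mir9-3 one held by 3. As for Mir9-1, their reads may not have been assigned, or not to the gene of origin.

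Around the pair, 21 other features start within 5 Mb of Mir132 on chromosome 11, of which 10 had a count and 5 were tested. The neighbours did not share one direction. Mir22, 0.290 Mb downstream, was at 446.6 ± 156.6 CPM in the resting and 280.2 ± 118.5 CPM in the proliferating input (SD, n = 2) and did not pass in either contrast of cell states, except in the IP with upper-quartile factors (-1.06). Mir3971, 0.378 Mb downstream, fell with proliferation, with log2 fold changes of -4.42 in the input and -2.74 in the IP. Mir144 fell too (-3.42 and -5.58). Mir195a, at -4.94 Mb from Mir132, rose in the IP (1.74, edgeR adjusted p = 0.0075) and did not pass in the input (1.21, adjusted p = 0.081). Mir423 rose in the input (1.20) and was at -0.04 in the IP. With upper-quartile factors Mir195a in the IP (1.12) and Mir423 in the input (0.85) did not pass, and with library totals Mir195a passed in the input (1.55). The other 5 counted neighbours, Mir7115, Mir6926, Mir7653, Mir193a and Mir365-2, had 1 to 5 counts each.

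Likeness of pattern was measured by Pearson's r of log2 CPM over the 8 libraries, which share their depth and composition, so r is a description only. Among 218 other tested features Mir674 came closest to Mir132 (r = 0.983), followed by Mir130b (0.965), Mir17 (0.955), Mir345 (0.950) and Mir298 (0.949). Like Mir132, Mir674 was lower in resting IP than in resting input, at 138.0 ± 35.8 against 289.9 ± 45.3 CPM, and highest in the proliferating IP, at 950.5 ± 103.1 CPM (SD, n = 2). Mir17, of the growth-promoting miR-17 cluster, had the same order of libraries as Mir132, with a Spearman rho of 1. For Mir212 the closest were Mir1306 (0.962), Mir222 (0.945), Mir130b (0.937), Mir298 (0.926) and Mir183 (0.920), so 2 features, Mir130b and Mir298, were on both lists. Mir1306 resembled Mir212 in being lower in the proliferating IP than in the input by means, at 1549 ± 198.1 against 1930 ± 386.1 CPM (SD, n = 2). Mir132 and Mir212 themselves had r = 0.867, which placed Mir212 24th for Mir132 and Mir132 15th for Mir212, and the few counts of Mir212 in resting cells enter this value.

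**Figure D5:**
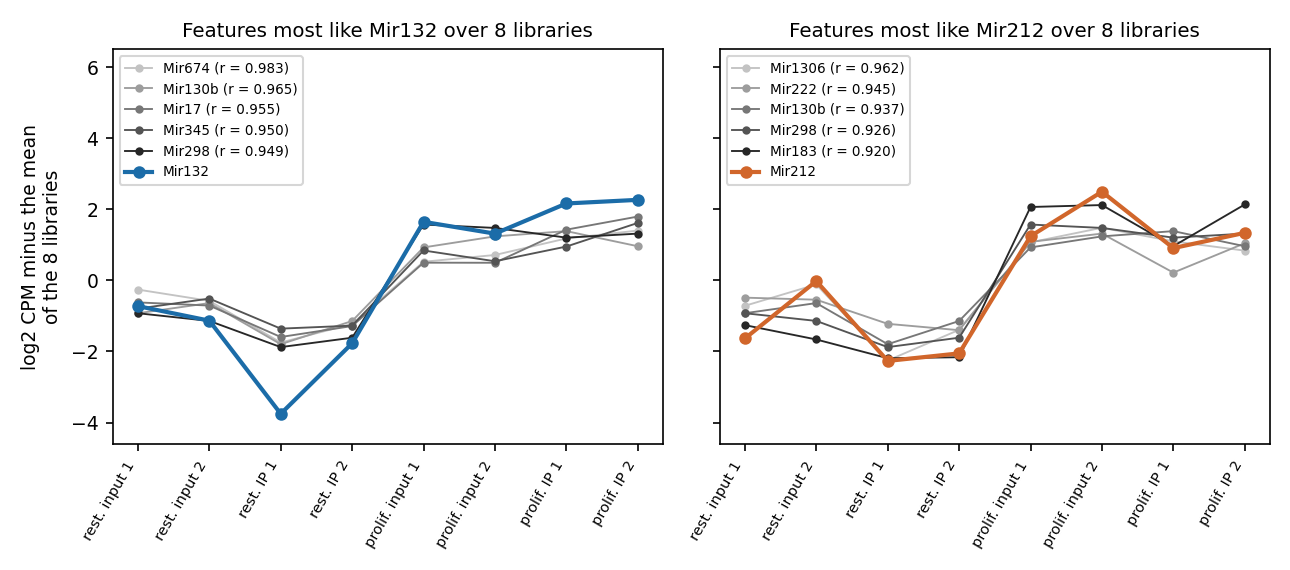
Log2 CPM minus its mean over the 8 libraries for Mir132 (left) and Mir212 (right) with the 5 features of highest Pearson r in grey. Mir132 follows Mir674 (r = 0.983) with a deeper drop in resting IP replicate 1, and Mir212 follows Mir1306 (r = 0.962), with its highest value in proliferating input replicate 2.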

How the data were processed

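The deposited tables, 1 per cell state, hold raw counts per miRNA gene; the submitters' processing notes name STAR 2.7.9a, SAMtools 1.15 and mm10. Per the file headers the counted alignments were deduplicated; how, and with which counter and strand setting, is not given in the sources. Cell state and table coincide. Features were named by exact coordinates in RefSeq (GRCm38.p6), which named 1179.

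Features with enough counts (filterByExpr, minimum count 10) were fitted in edgeR 4.0.16 (R 4.3.3) with TMM factors and 4 groups, on 8 libraries (36.6 prior and 4 residual degrees of freedom), with 2-sided quasi-likelihood tests and Benjamini-Hochberg adjustment over 219 features at 0.05. SE is the absolute log2 fold change over the square root of F. The fit was also run on simulated counts with less spread than these data, so that run does not vouch for the calls here. In every group the 2 libraries stood further apart than counting error alone would place them. Divided by its degrees of freedom, chi-square was 28.7 in resting input, 189 in resting IP, 8.56 in proliferating input and 137 in proliferating IP. Alternatives were other scalings and filters, DESeq2 1.42.0, fits on the groups compared, a prior count of 2, a replicate block and leaving out each library.

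The members and lists were chosen with earlier results of these data known. Named features are the members, counted features within 5 Mb, the 5 features most like each member, and list members that passed or were abundant. Other marker lists gave summed levels, in CPM, of 443 to 2619 (epithelial), 76.9 to 2046 (endothelial), 5.94 to 62.1 (hepatocyte), 3.51 to 101 (stromal) and 556 to 1012 (neural). Mir451a could not be assigned.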

Additional observations from a re-analysis of the deposited data

Results flagged for a closer look

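The IP over input log2 fold change of Mir132 differed between cell states by 2.74 (proliferating minus resting, edgeR adjusted p = 0.023), from a test of the difference itself; the resting IPs behind it hold 2 and 11 counts.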

How the results depend on the processing

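The rise of Mir132 with proliferation kept its direction and call in all 17 alternatives in the input and in the IP, and that of Mir212 in all 16 in the IP. For Mir132 in resting IP against input the calls were lost with RLE factors (-1.89), upper-quartile factors (-1.83), a minimum count of 50 (-2.05), DESeq2 (-1.86) and only the groups compared (-1.99), and leaving out 1 library gave -4.35 to -1.03. The difference between states for Mir132 did not pass with RLE factors (2.60), upper-quartile factors (2.42), library totals (2.34), a minimum count of 50 (2.78) and DESeq2 (2.57), and leaving out 1 library gave 1.82 to 5.13. On leaving out 1 library Mir212 gave 2.21 to 4.46 between states in the input, -3.55 to -1.27 for IP against input in resting cells, -1.51 to -0.46 in proliferating cells and 0.30 to 2.67 for the difference between states; the last 3 passed in none of these. The number of features called was 30 to 63 on leaving out 1 library in proliferating IP against input (59 with all), where it was 33 and 30 without proliferating input replicates 1 and 2 and 37 without proliferating IP replicate 2. For the difference between states (38 with all) it was 25 with RLE factors, 22 with upper-quartile factors and 11 to 46 on leaving out 1 library, with 25 without resting input replicate 1, and 11 and 13 without proliferating input replicates 1 and 2. In these cases the cause was not tested. Of the 5 features most like Mir132, 3 were among the first 5 by Spearman's rho. Divided by hairpin length, the share of Mir212 in the proliferating IP was 8.67% (11.6% by counts).

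Deviations of libraries with the same replicate number correlated between groups with r from -0.12 to 0.18, so the numbers were not taken as pairs. A low r does not show that the input and IP of a number come from separate preparations. Taken by number, the log2 ratio of IP over input CPM for Mir132 was -4.49 and -0.74 in resting cells. In proliferating cells it was 0.52 and 0.96. With the replicate block Mir132 was at 2.53 in the input and 5.29 in the IP between states, and no call of Mir132 or Mir212 changed under it. Mir212 had too few counts for the minimum count of 50, and for the fit of the resting libraries alone, so these gave no value for it.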
